A study of Homo sapiens with 6 samples.

Results

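Hypoxia-inducible genes outside glycolysis were followed in collagen cultures of HCA-7, an established human colorectal cancer cell line. The 31 genes were listed by their place in the hypoxia pathway: the oxygen sensing machinery and target genes that act in matrix modification, secreted signalling, mitochondrial turnover, chromatin and growth control. The list was made with earlier results of these data known. Each gene was read from its brightest probe set that the platform table ties to 1 gene symbol. Of the 31 genes, 30 had such a probe set, out of 19775 genes in all, and 26 had a mean of at least log2 5 and were tested, out of 12317 genes in all. No probe set carried the name CA9 alone, so CA9 was not analysed here, and EPAS1, BNIP3, LOX and STC1 lay below the level required for testing.

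Clones that grow as spiky colonies (SC1) and as cystic colonies (CC3) were cultured in type 1 collagen, and total RNA of the cell-containing gel layer was taken at day 5, 10 and 15. Each clone and day has 1 array, so 6 Affymetrix U133 Plus 2.0 arrays make up the series: 3 spiky and 3 cystic. Each colony shape is 1 clone, so shape and clone cannot be told apart, and nothing in the labels says that the days were separate cultures. In a fit of day and clone to these 6 arrays, the residual is how far the day changes of the clones disagree. A p-value here therefore reflects that disagreement, with variances shared across genes, and not the spread between replicate cultures. The disagreement can be a technical spread, and so few arrays limit how precise any value is. No treatment and no oxygen measurement is named in the labels.

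HIF-1 and HIF-2 are transcription factors made of an oxygen-regulated alpha subunit, encoded by HIF1A or EPAS1, and a constitutive partner. While oxygen is present, prolyl hydroxylases of the EGLN family mark the alpha subunit, the VHL ubiquitin ligase binds the mark and the protein is degraded. HIF1AN hydroxylates a further residue that blocks coactivator binding. In low oxygen the alpha subunit accumulates and drives target genes, EGLN3 and EGLN1 among them, so much of this control acts on protein and is not read by an RNA array.

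Array medians lay between 5.18 and 5.34 (log2). Of 11 colorectal epithelial markers 6 reached a mean of log2 5, EPCAM and the keratin genes KRT8, KRT18 and KRT19 among them, whereas KRT20, CDX2, CDH17, LGALS4 and GPA33 did not. Of 5 endothelial markers 0 reached that mean, as did 0 of the 2 red cell, 2 of 8 fibroblast and 3 of 7 leukocyte markers with a probe set.

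Of the 26 tested members most were higher at day 15 than at day 5, and in the genes that rose the larger step came after day 10 in both clones. In limma with Benjamini-Hochberg adjustment over all 12317 tested genes, 17 of the 26 members rose and 2 fell at day 15 against day 5. Of all tested genes 10.4% were called higher, 21.9% lower and 32.3% in either direction. Without the spiky day 5 array 12 members were called in either direction, in place of 19. Of the 19 calls 11 held in all 16 alternatives, whereas those of ANGPTL4, ANKRD37, FAM162A, HIF1A, JMJD6, MXI1, PLOD1 and VEGFA were lost in at least 1. The median difference was 1.18 over the tested members and -0.11 over all tested genes (log2). By at least log2 1, 15 members rose and 0 fell, against 3.47% and 4.28% of all tested genes. Both day 15 arrays lay above the other 4 arrays in 18 of the 26 tested members and in 15.2% of all tested genes. Because the members were chosen with earlier results of these data known, setting their counts beside the shares of all tested genes is no independent test. The 17 risers include EGLN3, which reached the level required for testing only through its day 15 arrays, so its test is not independent of that filter.

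**Figure D1:**
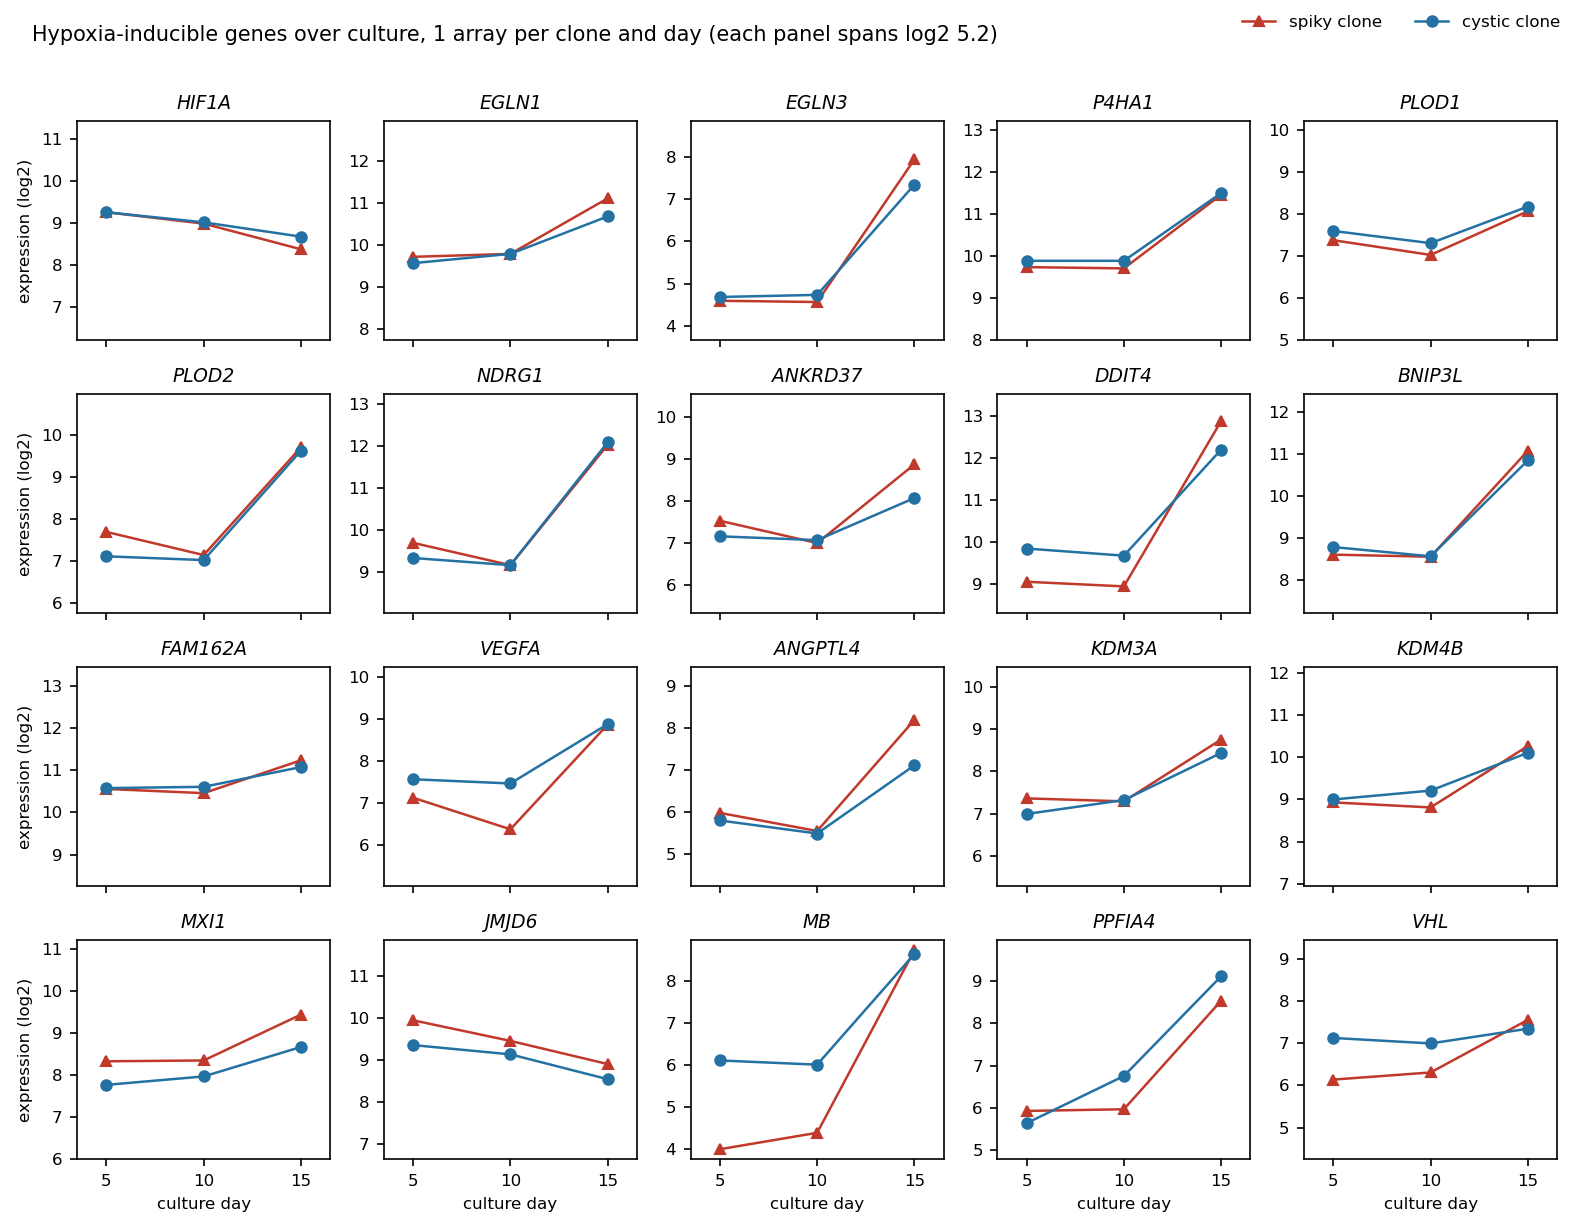
Expression (log2) at culture day 5, 10 and 15 of the 19 genes called at day 15 against day 5 and of VHL, with triangles for the spiky and circles for the cystic clone and 1 array per point. The 17 genes that rose stay near their day 5 level at day 10 in most panels and climb by day 15, while HIF1A and JMJD6 fall.

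The promoters of the members were read for the core of the hypoxia response element, the short sequence that HIF dimers contact. RefSeq windows of 300 bases (GRCh38.p14, 250 bases before to 50 after a start site) matched 24 of the 30 measured genes, in 33 windows. They were searched on both strands for ACGTG and GCGTG, of which ACGTG also lies inside the E-box CACGTG, where it is found on both strands. Shown are 5 genes that rose and hold a core, EGLN3, which rose and holds none, and BNIP3, which was near background and holds 6. Capitals mark the cores on either strand, and each window runs 5′ to 3′ along its gene. PPFIA4 lies at chr1:203026241-203026540 (plus strand), DDIT4 at chr10:72273674-72273973 (plus), PLOD2 at chr3:146161135-146161434 (minus), P4HA1 at chr10:73096817-73097116 (minus), ANKRD37 at chr4:185396591-185396890 (plus), EGLN3 at chr14:33951025-33951324 (minus) and BNIP3 at chr10:131981874-131982173 (minus).
PPFIA4: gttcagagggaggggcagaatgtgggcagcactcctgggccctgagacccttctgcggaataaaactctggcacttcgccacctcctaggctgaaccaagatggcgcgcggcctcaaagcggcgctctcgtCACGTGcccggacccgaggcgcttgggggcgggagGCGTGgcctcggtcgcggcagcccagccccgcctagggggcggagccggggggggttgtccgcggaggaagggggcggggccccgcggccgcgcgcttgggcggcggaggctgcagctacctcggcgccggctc
DDIT4: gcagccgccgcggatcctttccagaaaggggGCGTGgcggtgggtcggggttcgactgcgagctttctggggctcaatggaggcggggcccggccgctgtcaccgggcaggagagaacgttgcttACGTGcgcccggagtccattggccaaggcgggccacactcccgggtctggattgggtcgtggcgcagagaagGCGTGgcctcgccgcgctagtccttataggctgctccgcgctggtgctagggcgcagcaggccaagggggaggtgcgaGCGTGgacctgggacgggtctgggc
PLOD2: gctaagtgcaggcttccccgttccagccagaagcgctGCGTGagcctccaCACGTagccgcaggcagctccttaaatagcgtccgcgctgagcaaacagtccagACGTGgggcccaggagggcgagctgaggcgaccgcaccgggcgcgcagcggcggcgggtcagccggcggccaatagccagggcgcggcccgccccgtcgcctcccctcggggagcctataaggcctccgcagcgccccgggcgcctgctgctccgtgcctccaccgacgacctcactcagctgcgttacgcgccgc
P4HA1: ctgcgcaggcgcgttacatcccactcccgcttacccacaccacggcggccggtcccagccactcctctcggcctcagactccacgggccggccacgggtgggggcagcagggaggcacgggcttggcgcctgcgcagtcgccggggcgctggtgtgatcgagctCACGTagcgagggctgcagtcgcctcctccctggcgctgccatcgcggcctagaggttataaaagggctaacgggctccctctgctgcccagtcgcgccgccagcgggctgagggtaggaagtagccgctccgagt
ANKRD37: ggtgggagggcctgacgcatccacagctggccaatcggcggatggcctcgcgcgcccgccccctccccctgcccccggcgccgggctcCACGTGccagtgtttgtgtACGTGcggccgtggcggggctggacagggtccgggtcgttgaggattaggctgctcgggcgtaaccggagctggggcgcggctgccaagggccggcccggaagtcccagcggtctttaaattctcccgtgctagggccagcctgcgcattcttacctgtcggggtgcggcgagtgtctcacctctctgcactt
EGLN3: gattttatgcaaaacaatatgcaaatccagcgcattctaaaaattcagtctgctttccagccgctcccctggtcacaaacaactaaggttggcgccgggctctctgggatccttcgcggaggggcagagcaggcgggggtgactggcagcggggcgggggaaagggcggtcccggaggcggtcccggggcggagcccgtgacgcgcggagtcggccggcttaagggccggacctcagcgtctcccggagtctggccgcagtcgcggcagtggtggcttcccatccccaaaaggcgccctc
BNIP3: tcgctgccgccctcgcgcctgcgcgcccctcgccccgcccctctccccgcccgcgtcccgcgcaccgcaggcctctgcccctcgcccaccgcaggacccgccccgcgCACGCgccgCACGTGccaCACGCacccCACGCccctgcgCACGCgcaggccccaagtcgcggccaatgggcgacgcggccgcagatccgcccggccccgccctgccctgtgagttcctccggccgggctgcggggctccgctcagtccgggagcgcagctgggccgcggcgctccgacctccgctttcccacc

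ANKRD37 holds 3 matches to ACGTG, at -162, -161 and -143 from the start site, the first pair being both strands of 1 E-box. DDIT4 holds ACGTG at -125 beside 3 matches to GCGTG. P4HA1 holds 1 match, at -86. Of the 14 risers with a window 12 held a core in at least 1 window, as did 8 of the 10 other members with a window. By window, ACGTG occurred in 52.6% of 19 windows of risers and in 50.0% of 14 windows of the other members, against 25.3% of the windows of tested genes and 21.4% of all 35116 windows. GCGTG occurred in 52.6% and 71.4%, against 47.8% and 36.5%. At least 1 of these cores occurred in 73.7% of the windows of risers and 78.6% of those of the other members. Among the windows of tested genes this share was 59.9%, and among all windows 48.4%. The other members include EPAS1, BNIP3 and LOX, which were not tested. A match describes these letters in this window and says nothing of binding, and windows of 1 gene can overlap.

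**Figure D2:**
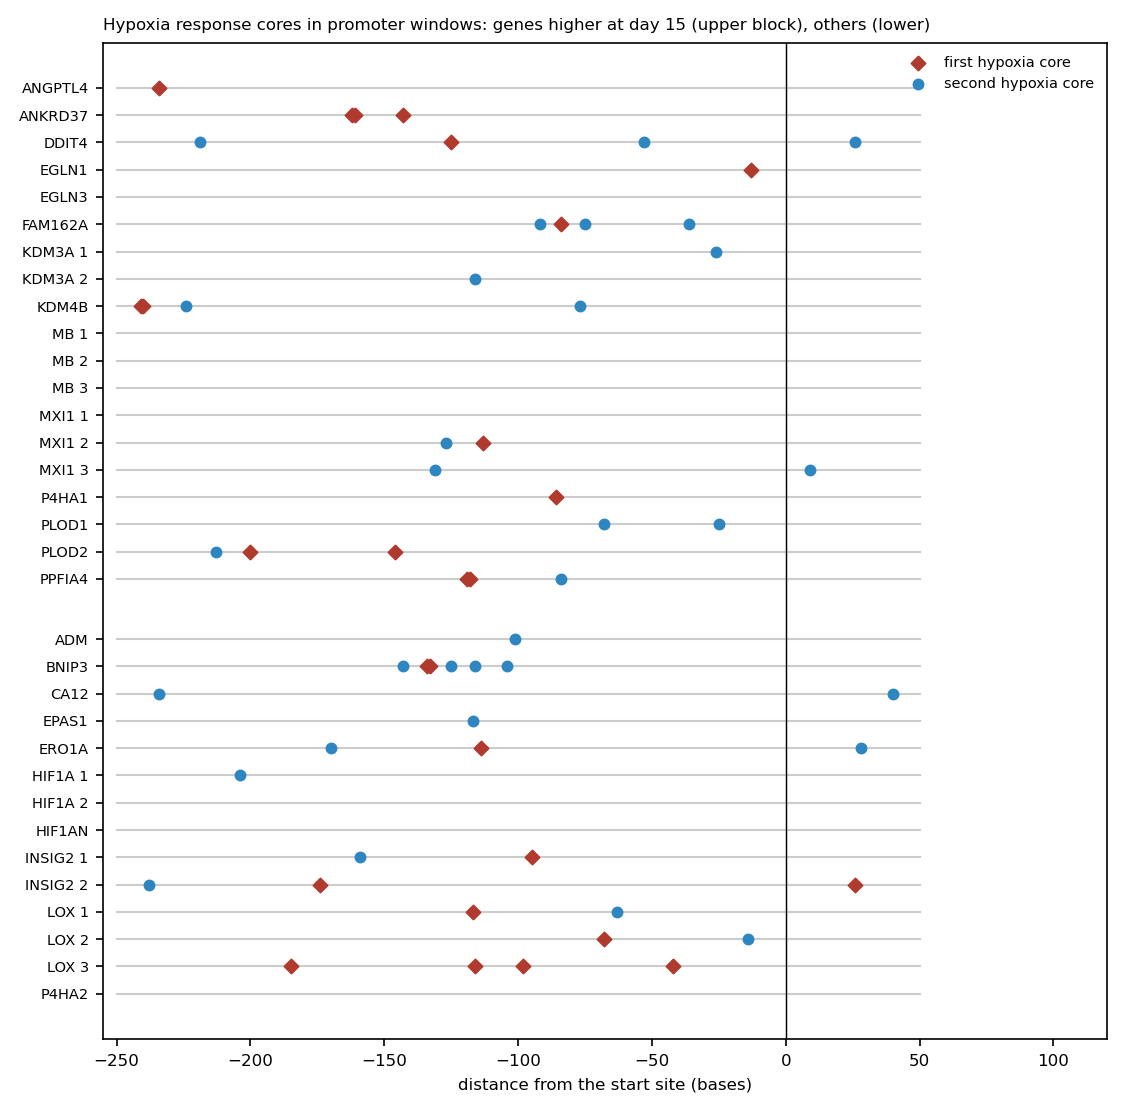
Position of hypoxia response cores, in bases from the start site, in the 33 promoter windows of the members, where diamonds are ACGTG (first core) and circles GCGTG (second core) and several windows of a gene are numbered. MB and EGLN3 hold none. In the lower block of genes that did not rise or were not tested, P4HA2 and HIF1AN hold none, while BNIP3 holds 6 matches.

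Among the oxygen sensing genes the prolyl hydroxylase genes EGLN1 and EGLN3 rose and the alpha subunit gene HIF1A fell. EGLN3 read 4.59, 4.56 and 7.95 in the spiky clone and 4.68, 4.73 and 7.35 in the cystic clone at day 5, 10 and 15 (log2). Its earlier arrays were all under log2 5, near background, and both day 15 arrays were far above them, at least 6.28-fold over day 5 (adjusted p = 0.000298). EGLN3 reached the level required for testing only through those day 15 arrays, so this p-value is not independent of that filter. EGLN1, the main hydroxylase of HIF alpha subunits, read 9.72, 9.79 and 11.11 in the spiky and 9.57, 9.79 and 10.68 in the cystic clone. It rose by 2.39-fold (SE of the log2 difference 0.13, adjusted p = 0.000546), and both of its other probe sets with a mean of at least log2 5 moved by 1.22 to 1.33. EGLN2, the remaining hydroxylase of the family, did not pass, with a difference of -0.31 (SE 0.23, adjusted p = 0.352). HIF1A read 9.25, 8.98 and 8.37 in the spiky and 9.25, 9.01 and 8.67 in the cystic clone. Its level was thus lowest on both day 15 arrays, and it fell by 0.73 on the log2 scale (SE 0.14, adjusted p = 0.00561).

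VHL, HIF1AN and EPAS1 were less clear. VHL, the substrate receptor of the ligase, read 6.14, 6.31 and 7.56 in the spiky and 7.13, 7.0 and 7.35 in the cystic clone. The spiky day 15 array was the highest, and the difference of 0.82 (SE 0.28) missed the threshold with adjusted p = 0.0528. From day 5 to day 15 this probe set moved by 1.42 in the spiky and 0.21 in the cystic clone. The other bright VHL probe set moved by 0.41 and 0.48. HIF1AN read 8.37, 8.14 and 8.36 in the spiky and 8.69, 8.37 and 8.39 in the cystic clone, with a difference of -0.16 (SE 0.16, adjusted p = 0.491). EPAS1 fell short of the level required for testing by 0.00027, with 4.96, 3.86 and 5.82 in the spiky and 4.92, 4.46 and 5.98 in the cystic clone. Its highest value in each clone was that of day 15, and with the required level set to log2 4 its day 15 difference of 0.96 (SE 0.24) passed in limma with adjusted p = 0.0206, or 0.0304 with no required level.

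Collagen-modifying enzymes divided by family member. P4HA1, a catalytic subunit of collagen prolyl 4-hydroxylase, read 9.73, 9.70 and 11.45 in the spiky and 9.88, 9.88 and 11.49 in the cystic clone. The 4 earlier arrays differed little, and day 15 was 3.17-fold above day 5 (log2 difference 1.66, SE 0.10, adjusted p = 6.31e-05). A dimmer P4HA1 probe set, with a mean of 6.31, moved by 0.44 only and was highest at day 10 in both clones. PLOD2, the lysyl hydroxylase that acts on collagen telopeptides, read 7.70, 7.15 and 9.71 in the spiky and 7.12, 7.03 and 9.63 in the cystic clone, 4.79-fold higher at day 15 (adjusted p = 0.000288). Its relative PLOD1 rose by 0.63 (adjusted p = 0.0225). P4HA2, the other catalytic subunit in the list, read 9.35, 9.07 and 9.39 in the spiky and 9.55, 8.97 and 9.45 in the cystic clone, and its day 15 difference was -0.03 (SE 0.13, adjusted p = 0.885). LOX, the lysyl oxidase that cross-links collagen, lay between 3.26 and 4.04 on all arrays.

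The stress response genes DDIT4, NDRG1 and ANKRD37 rose, ANKRD37 with less support. DDIT4, an inhibitor of mTOR signalling, read 9.06, 8.95 and 12.88 in the spiky and 9.85, 9.68 and 12.20 in the cystic clone. Both day 15 arrays stood far above the others, and it rose by 8.47-fold (log2 difference 3.08, SE 0.29, adjusted p = 0.000461). NDRG1, a differentiation and stress gene used as a hypoxia marker, read 9.69, 9.16 and 12.02 in the spiky and 9.33, 9.16 and 12.08 in the cystic clone. It rose by 5.82-fold with the smallest p of the list (log2 difference 2.54, SE 0.12, adjusted p = 3.59e-05). ANKRD37, a small ankyrin repeat protein gene, read 7.53, 7.0 and 8.87 in the spiky and 7.16, 7.07 and 8.07 in the cystic clone and rose by 2.19-fold (adjusted p = 0.00578). With the mean of all its probe sets the ANKRD37 difference was 0.40 (adjusted p = 0.18), against 1.13 from the brightest, and without the spiky day 5 array it missed the threshold (adjusted p = 0.0799).

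Of the mitochondrial genes, BNIP3L, a mitophagy receptor, read 8.61, 8.56 and 11.08 in the spiky and 8.79, 8.57 and 10.85 in the cystic clone. Both clones were alike at each day, and it rose by 4.81-fold (log2 difference 2.26, SE 0.14, adjusted p = 6.51e-05). Its paralogue BNIP3 lay between 3.47 and 4.85 on all arrays and was not tested. FAM162A, a mitochondrial protein gene, rose by 1.51-fold (adjusted p = 0.00324), read from a probe set of the _x_at type, which can detect related transcripts.

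Of the secreted factors VEGFA and ANGPTL4 rose. VEGFA, the vascular growth factor, read 7.13, 6.38 and 8.87 in the spiky and 7.57, 7.47 and 8.88 in the cystic clone. The clones met at day 15, and the rise was 2.87-fold (log2 difference 1.52, SE 0.25, adjusted p = 0.00253). ANGPTL4, an inhibitor of lipoprotein lipase, read 5.98, 5.55 and 8.19 in the spiky and 5.80, 5.49 and 7.11 in the cystic clone, 3.38-fold higher at day 15 (adjusted p = 0.00211). A dimmer ANGPTL4 probe set, with a mean of 4.918, read 5.277, 4.375 and 5.241 in the spiky and 4.684, 4.767 and 5.163 in the cystic clone. In the spiky clone that probe set was thus not higher at day 15 than at day 5. ADM, the precursor of the vasodilator adrenomedullin, read 6.88, 6.49 and 8.09 in the spiky and 8.23, 7.25 and 7.85 in the cystic clone. Day 15 did not stand apart from day 5 for this gene, with a difference of 0.42 (SE 0.32, adjusted p = 0.359). STC1, which encodes stanniocalcin, lay between 3.77 and 4.29 on all arrays.

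The histone demethylase genes KDM3A and KDM4B are oxygen-dependent enzymes as well as HIF targets. KDM3A read 7.36, 7.29 and 8.76 in the spiky and 6.99, 7.32 and 8.44 in the cystic clone, and rose by 2.68-fold (adjusted p = 0.00111). KDM4B read 8.93, 8.81 and 10.27 in the spiky and 9.0, 9.21 and 10.11 in the cystic clone, and rose by 2.33-fold (adjusted p = 0.00101). MXI1, an antagonist of MYC, read 8.32, 8.34 and 9.43 in the spiky and 7.76, 7.96 and 8.66 in the cystic clone, and rose by 2.01-fold (adjusted p = 0.00231). JMJD6, a further oxygen-dependent dioxygenase gene, fell, with 9.94, 9.45 and 8.90 in the spiky and 9.35, 9.13 and 8.54 in the cystic clone (log2 difference -0.93, SE 0.13, adjusted p = 0.00158). Its probe sets disagreed: 1 of its other bright probe sets moved by -0.77 and the other by 0.63, and the mean over all of them gave -0.25.

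MB and PPFIA4 are usually named with muscle and neurons. MB, the oxygen-binding protein myoglobin, read 3.99, 4.38 and 8.72 in the spiky and 6.10, 6.0 and 8.63 in the cystic clone. The spiky clone started near background and reached the level of the cystic clone, and day 15 was at least 8.70-fold over day 5 (adjusted p = 0.000896). PPFIA4, a liprin scaffold gene, read 5.92, 5.96 and 8.54 in the spiky and 5.63, 6.75 and 9.12 in the cystic clone, and rose by 8.31-fold (log2 difference 3.05, SE 0.27, adjusted p = 0.000307). ERO1A, the oxidase of the endoplasmic reticulum, INSIG2, a brake on sterol synthesis, and CA12, a carbonic anhydrase that acts in pH control, did not pass, with differences of 0.08, 0.22 and 0.04. Both dimmer ERO1A probe sets moved by 0.47 to 0.58, and with the mean of all its probe sets ERO1A passed, at 0.38 (adjusted p = 0.0358). The 6 other CA12 probe sets had means under log2 5. Most of them read higher at day 15 than at day 5 in both clones.

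In RNA of a whole gel layer, more cells that express a gene and more RNA per cell cannot be told apart. The fibroblast collagen gene COL1A1 also rose by day 15, with 6.41, 6.40 and 7.54 in the spiky and 6.50, 7.02 and 8.12 in the cystic clone (adjusted p = 0.00203). FBLN1, the only other fibroblast marker tested, did not pass in limma, with a difference of 0.21 (SE 0.21, adjusted p = 0.486). The remaining fibroblast markers had means under log2 5. The mean level of the 8 fibroblast markers was 4.47 at day 15 against 4.19 at day 5 in the spiky clone, and 4.65 at day 15 against 4.31 at day 5 in the cystic clone. Of the 6 tested epithelial markers 2 fell, KRT18 by 0.66 (adjusted p = 0.00106) and KRT8 by 0.48 (adjusted p = 0.0412) on the log2 scale. EPCAM was at -0.17 (adjusted p = 0.107), and VIL1 at -0.24, KRT19 at -0.04 and CDH1 at 0.32 did not pass either. KRT18 and KRT8 were at -0.55 and -0.58 for day 10 against day 5, where neither passed. For day 15 against day 10 they were at -0.11 and 0.10, and KRT19 rose by 0.48. The mean level of the 11 epithelial markers was 7.30 at day 15 against 7.39 at day 5 in the spiky clone, and 7.35 at day 15 against 7.6 at day 5 in the cystic clone. As a sign of RNA integrity, the control probe sets at the 3' end of ACTB exceeded those at its 5' end by 2.73, 2.74 and 3.10 on the spiky and 2.83, 3.18 and 3.28 on the cystic arrays (log2). For GAPDH this excess was 0.60, 0.63 and 0.49 on the spiky and 0.65, 0.79 and 0.63 on the cystic arrays. The part of these in the results was not tested.

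The risers changed late. At day 10 against day 5, limma called 0 of the 26 members, with 3 at an unadjusted p under 0.05, namely JMJD6 (-0.36), NDRG1 (-0.35) and P4HA2 (-0.43). Among all 12317 genes 2 passed, 0.0162%, with 0.00812% higher and 0.00812% lower, and 1658 had an unadjusted p under 0.05. At day 15 against day 10, 18 members rose and 2 fell, against 8.66% and 14% of all tested genes (22.6% in either direction), and the median was 1.14 over the members and -0.01 over all tested genes. The 18 comprised the 17 risers and ADM, whose late step was 1.10 (SE 0.32, adjusted p = 0.0371). These comparisons share the day 5 or the day 15 arrays with that of day 15 against day 5.

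**Figure D3:**
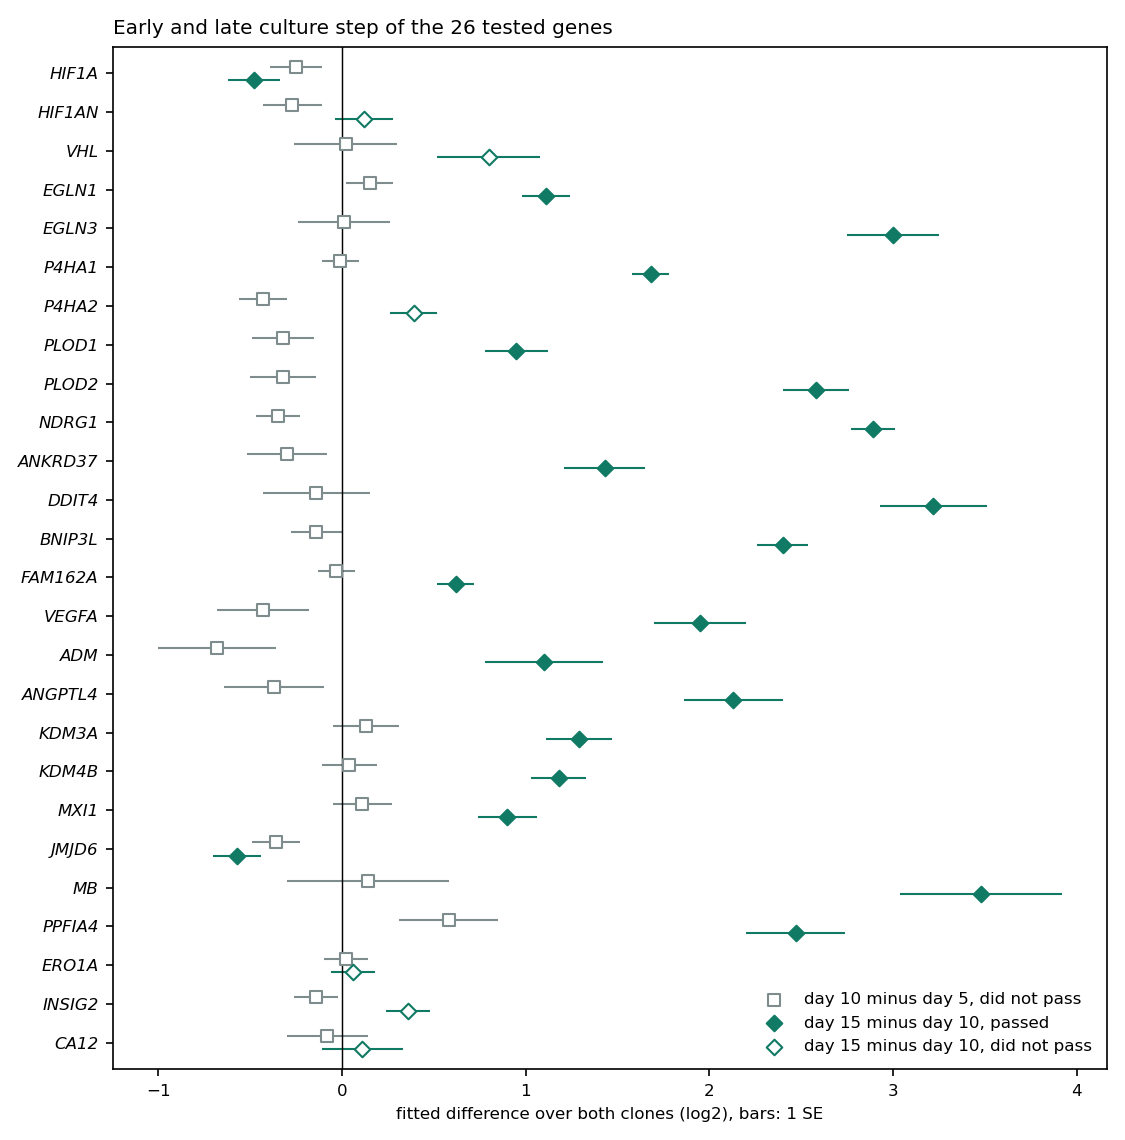
Fitted difference of the early step (day 10 minus day 5, squares) and of the late step (day 15 minus day 10, diamonds) for the 26 tested genes, as log2 over both clones with bars of 1 SE. The early steps lie between -0.68 (ADM) and 0.58 (PPFIA4), and 18 late steps pass above 0.

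A test of the late against the early step called 8 members, all with the larger late step: NDRG1 (log2 difference of the steps 3.25, SE 0.22, adjusted p = 0.00138), BNIP3L (2.53), P4HA1 (1.69), PLOD2 (2.90), DDIT4 (3.37), EGLN3 (3.00, against earlier arrays under log2 5), VEGFA (2.38) and ANGPTL4 (2.50). Of all tested genes 0.666% were called in that direction and 1.06% in either. The count fell to 0 when the variances did not follow the intensity trend, and with any 1 array left out it lay between 1 and 20. The count was 1 without the cystic day 5 array and 2 without the spiky day 5 or the spiky day 10 array. It was 15 without the spiky and 20 without the cystic day 15 array. With the mean of all its probe sets the P4HA1 difference of the steps was 0.34 in limma and did not pass (adjusted p = 0.431).

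Within each clone, given as values of 1 array per day, the late step was larger than the early step in 17 of 17 risers in the spiky clone and in 17 of 17 in the cystic clone. Among all 1287 genes that rose by day 15 this held for 81.3% in the spiky and 74.0% in the cystic clone. In the spiky clone the early steps of the risers ran from -0.75 to 0.39 with a median of -0.10, and 13 lay below 0. The late steps ran from 0.77 to 4.34 with a median of 2.49. With arrays under log2 5 set to 5, which touches EGLN3 and MB alone, the highest early step of the spiky clone was 0.07 and its highest late step 3.93, and the medians were the same. In the cystic clone the early steps ran from -0.32 to 1.12 with a median of -0.08, and 9 lay below 0, while the late steps ran from 0.47 to 2.92 with a median of 1.61. PPFIA4 in the cystic clone had the highest early step of the risers, 1.12, before a late step of 2.37, whereas in the spiky clone its steps were 0.04 and 2.58. The lowest early steps were those of VEGFA (-0.75), PLOD2 (-0.55), NDRG1 (-0.53) and ANKRD37 (-0.52) in the spiky clone.

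**Figure D4:**
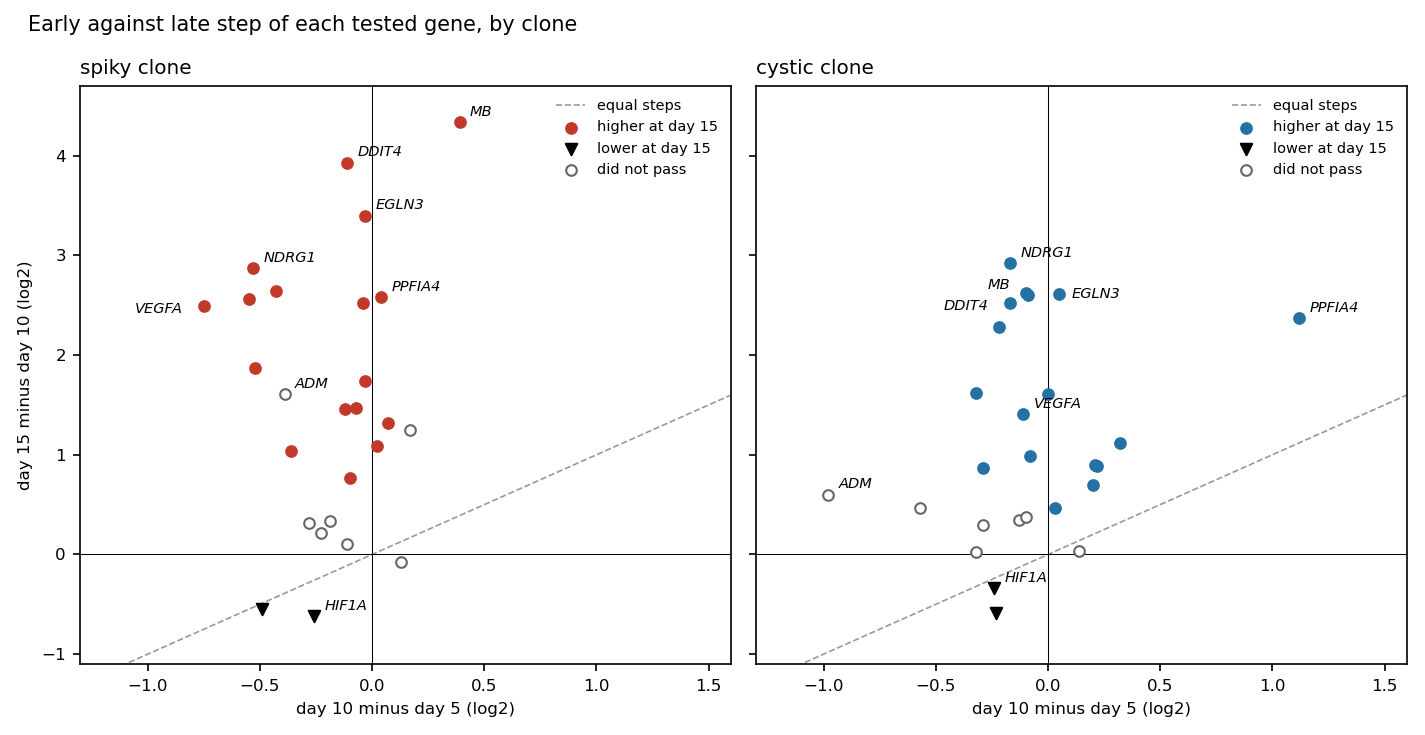
Early step (x axis, day 10 minus day 5) against late step (y axis, day 15 minus day 10) of the 26 tested genes in log2, for the spiky clone on the left and the cystic clone on the right, 1 array per day. All 17 genes higher at day 15 lie above the dashed line of equal steps in both clones, and PPFIA4 in the cystic clone stands furthest to the right.

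The size of the rise was also set side by side between the clones. At day 15 against day 5, DDIT4 was 14-fold higher in the spiky and 5.11-fold higher in the cystic clone. EGLN3, whose day 5 arrays were under log2 5, was at least 7.75-fold higher in the spiky and at least 5.08-fold higher in the cystic clone, which does not order the clones. PPFIA4 went the other way, with 6.16-fold in the spiky and 11.2-fold in the cystic clone. The larger rise was in the spiky clone for 13 of the 17 risers, and for 64.3% of all 1287 rising genes. A test of the slope difference, spiky minus cystic per 10 days, gave 2.20 for MB (SE 1.51, with spiky arrays under log2 5), 1.59 for ADM (SE 0.87), 1.46 for DDIT4 (SE 1.48) and 1.2 for VHL (SE 0.56), each with adjusted p = 0.999. The VHL value is that of its brightest probe set. In this test limma called 0 of the members and 0 of all 12317 genes (0%), with 0 members and 309 genes at an unadjusted p under 0.05. The fit takes day as a straight line, so a bend over the days that both clones share widens its spread. For DDIT4 the SE was 1.48, against 0.29 for day 15 against day 5 with day as a factor. That 0 members passed thus cannot show that late risers changed alike in both clones. Without the spiky day 5 array 2 members passed, DDIT4 and MB, but the spiky slope is then the step from day 10 to 15 alone while the cystic slope spans all 3 days, so this is no test of a difference between the clones.

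Across the 3 days, 3 of the 26 members were called between the clones and all 3 were higher in spiky colonies, a share close to the 11.4% of all tested genes called in either direction (3.65% higher, 7.74% lower). MXI1 was higher by 0.57 (SE 0.13, adjusted p = 0.0237), with differences of 0.56, 0.38 and 0.77 at day 5, 10 and 15. JMJD6 was higher by 0.42 (adjusted p = 0.0363), but differed by -0.02 over the mean of all its probe sets. INSIG2 was higher by 0.37 (adjusted p = 0.0467), with 9.48, 9.29 and 9.63 in the spiky and 9.03, 8.94 and 9.31 in the cystic clone. For these 3 genes the spiky array was the higher one at each day. No call held in all alternatives: 0 of the members passed without culture day as a block, without the intensity trend, without either day 5 array or without the spiky day 10 array. Without the cystic day 10 array 1 passed, and without either day 15 array 8 passed. Of those 8, 3 were higher in spiky colonies and 5, namely VHL, VEGFA, ADM, DDIT4 and MB, were lower. When 1 array of a day is left out, the day term takes up the other array of that day. The clones are then compared on the remaining days alone. These 8 calls thus rest on the day 5 and 10 arrays and do not describe all 3 days. The median difference of the members was 0.00, against -0.03 for all tested genes.

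For several members the sign of the difference between the clones at day 15 was opposite to that at day 5 and 10. MB differed by -2.11, -1.62 and 0.09 (spiky minus cystic, log2) at day 5, 10 and 15, and by -1.11, -1.0 and 0.09 with its spiky arrays under log2 5 set to 5. ADM differed by -1.34, -0.76 and 0.25, DDIT4 by -0.79, -0.73 and 0.67, and VHL by -0.99, -0.69 and 0.21. The turn of VHL rests on its brightest probe set. Its other bright probe set read 6.125, 6.116 and 6.534 in the spiky and 6.362, 6.538 and 6.846 in the cystic clone. That probe set was thus lower in the spiky clone at each day. The spiky array was the higher one for 12, 7 and 18 of the 26 members at day 5, 10 and 15, with medians of -0.01, -0.05 and 0.16. With 1 array per clone and day these counts have no test.

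**Figure D5:**
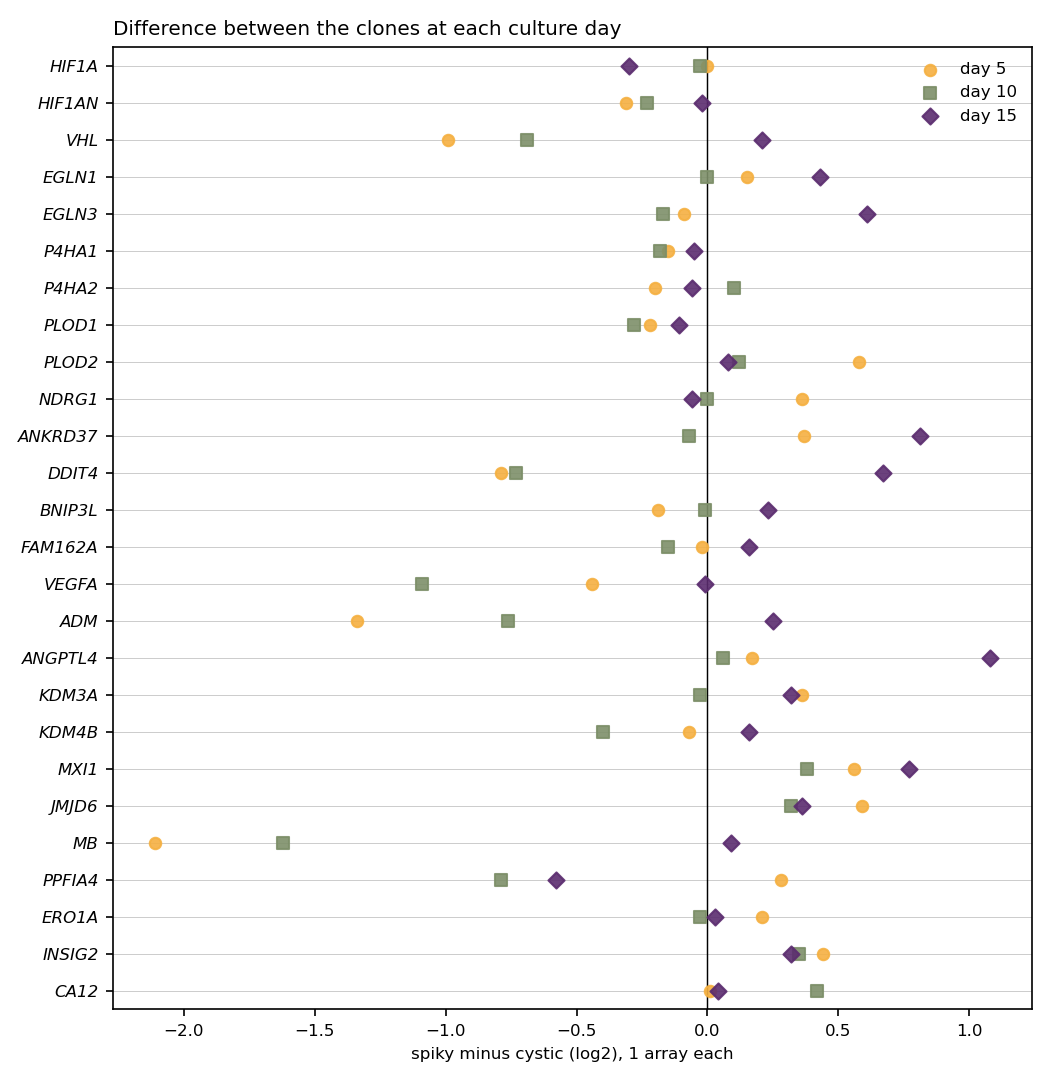
Spiky minus cystic difference (log2, 1 array each) of the 26 tested genes, each read from its brightest probe set, at day 5 (circles), day 10 (squares) and day 15 (diamonds). MXI1, JMJD6 and INSIG2 lie above 0 at each day, whereas MB, ADM, VHL and DDIT4 are negative at day 5 and 10 and positive at day 15.

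Further genes of the pathway were counted by list, and these lists too were made with earlier results of these data known. Their counts at day 15 against day 5 stand against the 10.4% of all tested genes called higher, the 21.9% called lower and the 32.3% called in either direction. Of 17 tested regulators of HIF, 1 rose and 4 fell, with a median of -0.16, a share near that of all tested genes. CITED2, which competes with HIF for coactivators, rose by 0.56 (adjusted p = 0.0424), while the ubiquitin ligase gene SIAH2, at -0.67, and the VHL complex scaffold CUL2, at -0.64, fell, as did ELOC and HSP90AA1. ARNT, the partner of the alpha subunits, was at 0.06 (SE 0.15, adjusted p = 0.796). Of 36 other tested hypoxia-inducible genes outside glycolysis 8 rose and 5 fell, with a median of 0.20, which in either direction is also near the share of all tested genes: the circadian repressor BHLHE40 at 1.78 and the cyclin gene CCNG2 at 1.67 rose, and the endothelin gene EDN1 at -2.35 and the adenosine receptor gene ADORA2B at -1.22 fell. Of 20 HIF targets of glucose metabolism 13 rose and 0 fell, with a median of 0.51. The largest rises were those of the aldolase gene ALDOC, at 2.25 (adjusted p = 0.000306), and of PDK1, a kinase that inhibits pyruvate dehydrogenase, at 2.02 (adjusted p = 0.000266). At day 10 against day 5, limma called 0 genes of each of these lists.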

How the data were processed

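The deposited table holds log2 values of 54675 probe sets on 6 Affymetrix arrays, which the authors made with RMA, per the submitters' processing notes. RMA as a rule includes quantile normalization, which gives arrays a like distribution and removes a shift shared by most genes. Probe sets were named from the platform gene table, where 41097 had 1 symbol, 1801 several and 11777 none, and 41043 of those with 1 symbol matched RefSeq. For each gene the probe set with the highest mean was kept, and genes with a mean of at least log2 5 were tested.

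Differences were fitted with limma 3.58.1 in R 4.3.3, with day and clone as terms, an intensity trend in eBayes and Benjamini-Hochberg adjustment over all 12317 tested genes at 0.05. The fit has 2 residual degrees of freedom. The clone term of this fit gave the test between the clones, with culture day, which both clones share, as the block. A separate fit, with day as a number and a day by clone term, gave the slope difference. A fold against arrays under log2 5 sets those to 5 and is a lower bound. The scripts were tested on simulated data. All tested members were named, and of each other pathway list the 2 largest rises and falls where it had them. EGLN2, ELOC, HSP90AA1, ARNT and the cell markers with values were added after their values were seen. The members and lists were chosen with earlier results of these data known. Alternatives were another filter, scaling, probe choice and variance model, the block and each array left out.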

Additional observations from a re-analysis of the deposited data

Results flagged for a closer look

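For 3 members the difference between day 15 and day 5 of the brightest probe set had opposite signs in the spiky and the cystic clone. ADM differed by 1.21 in the spiky and -0.38 in the cystic clone, a gap of 1.59 (log2). P4HA2 differed by 0.04 in the spiky and -0.10 in the cystic clone, a gap of 0.14, while its other bright probe set was at 0.03 in the spiky and 0.28 in the cystic clone. ERO1A differed by -0.01 in the spiky and 0.17 in the cystic clone, a gap of -0.18. The opposite signs of ERO1A rest on that 1 probe set: its other bright probe sets were at 0.84 and 0.45 in the spiky clone and at 0.32 and 0.50 in the cystic clone. The fitted difference over both clones has an SE of 0.13 for P4HA2 and 0.12 for ERO1A. The values of their brightest probe sets thus show no clear direction in either clone. Each clone has 1 array a day, and in limma's test of the slope difference none of these 3 genes passed (adjusted p = 0.999). That test takes day as a straight line, so a bend over the days that both clones share widens its spread.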

How the results depend on the processing

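Of the members called at day 15 against day 5, 11 of 19 passed in all 16 alternatives. ANGPTL4, ANKRD37, FAM162A, HIF1A, JMJD6, MXI1, PLOD1 and VEGFA did not. At day 15 against day 5 ERO1A passed in 1 of 16 alternatives, the mean of all its probe sets (0.38). With 1 array left out in turn, the calls lay between 12 and 21 at day 15 against day 5, between 14 and 21 at day 15 against day 10, between 1 and 20 for the late against the early step, between 0 and 8 between the clones and between 0 and 2 for the slope difference. At day 10 against day 5 limma called 0 members in every alternative run, with 3 at an unadjusted p under 0.05 as reported.

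For the late against the early step, the 8 calls became 4 with a required mean of log2 4, 4 with no filter, 4 with the mean of all probe sets of a gene and 0 without the intensity trend. Between the clones, the 3 calls became 1 with no filter, 0 without the intensity trend and 0 with no replicate block, when culture day was left out. With the mean of all its probe sets JMJD6 was at -0.02 between the clones, the reverse of its reported direction. Among all tested genes, the late step test called 130 genes as reported, against 25, 17, 43 and 0 under those 4 settings and 58 after loess, and 72 genes between the clones with no replicate block, against 1403. The cause of these shifts was not tested. Centring the arrays moved the median of all genes at day 15 against day 5 to -0.20, against -0.11 as deposited, and no called member turned direction. VHL passed at day 15 against day 5 in 7 of 16 alternatives.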
